A study of Mus musculus with 20 samples.

Results

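The cytosolic ribosomal protein genes encode the protein part of the cytosolic ribosome. They were taken here as every gene of the array whose symbol is Rpl or Rps followed by a digit, or Rpsa, Rplp0, Rplp1 or Rplp2, leaving out the Rps6 kinases. A probe set, the group of short probes that reports 1 transcript, had to carry that symbol alone, and each gene was represented by the brightest of its probe sets over all arrays. The rule found 49 genes among 101 such probe sets, out of 12393 genes and 22626 non-control probe sets on the array. Of the 49 genes, 42 had a mean intensity above the filter of about 126 on the linear scale and were tested. They are 17 large subunit proteins, 18 small subunit proteins, the stalk proteins Rplp0 and Rplp2, and 5 paralogs of core proteins (Rpl3l, Rpl7l1, Rpl22l1, Rpl39l and Rps27l). A further 102 ribosomal probe sets name several genes at once and lie outside the rule, and no probe set carried the symbol Rpl3, Rpl5, Rpl10, Rplp1 or Rps27a alone.

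RNA came from skeletal muscle of 20 mice, with 1 Affymetrix array per mouse and 5 mice in each of 4 groups. The groups are untrained wild-type mice (WTUT), trained wild-type mice (WTT), untrained transgenic mice (TGUT) and trained transgenic mice (TGT). The series title names MHC-I over-expression as the genetic change and endurance exercise as the training. The labels used here give no promoter or construct for the transgene, no muscle, sex or age, no training schedule and no batch. A free-text description calls every sample transgenic and trained, so groups were taken from the sample titles.

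Each cytosolic ribosome joins a large and a small subunit, in which ribosomal RNA does the decoding and the peptide bond chemistry and the proteins fold, hold and regulate that RNA. Cells make the proteins in matched amounts, in part because their mRNAs start with a pyrimidine tract (the 5′ TOP) whose translation follows growth signals through mTORC1 and the RNA-binding protein Larp1. In muscle, making more ribosomes is one way to raise protein synthesis, and Rpl3l is a muscle-enriched version of the large subunit protein Rpl3.

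The promoters are shown because the members share sequence features there that the rule did not use. RefSeq promoter windows of assembly GRCm38.p6, from 250 bases before to 50 bases after the annotated start, matched 42 of the 49 genes. The 6-base motif CCGGAA, the core of sites for ETS-family factors, was found on either strand in 28 of the 42 (66.7%), against 16.7% of 27025 genes of the same table. A C at the annotated start followed by 4 pyrimidines, the letters of a 5′ TOP, was found in 19% of the members and in 3.01% of all genes. CTTTCC was present in 52.4% against 29.3%, AANATGGC, which holds the core of YY1 sites, in 16.7% against 6.96%, and the TATA box letters TATAAA in 14.3% against 15.7%. The 4 motifs were searched on both strands and the start letters on the gene's strand, and 5 CCGGAA matches in the members overlapped another motif. A match is a description of letters and not of binding.

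For 7 genes on which the results turn, the stretch from 100 bases before to 20 bases from the start is printed 5′ to 3′ on the gene's strand, with CCGGAA or its reverse complement in capitals. Rpl4 (chr9:64173287-64173406, plus strand) is shown because it changed with training. Rpl10a (chr17:28328371-28328490, plus strand, the first of 2 starts), Rpl6 (chr5:121204401-121204520, plus strand) and Rps3a1 (chr3:86142649-86142768, minus strand) are the genes nearest to it. The paralogs Rpl3l (chr17:24727726-24727845, plus strand, the first of 2 starts) and Rps27l (chr9:66945986-66946105, plus strand, the first of 2 starts) are shown beside these core proteins, and Rpl22 (chr4:152325626-152325745, plus strand, the first of 2 starts) had probe sets that disagreed.
Rpl4: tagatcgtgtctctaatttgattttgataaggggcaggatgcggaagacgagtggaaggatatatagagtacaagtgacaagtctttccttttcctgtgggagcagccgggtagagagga
Rpl10a: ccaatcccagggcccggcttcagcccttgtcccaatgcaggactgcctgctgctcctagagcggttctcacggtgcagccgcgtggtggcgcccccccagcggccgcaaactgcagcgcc
Rpl6: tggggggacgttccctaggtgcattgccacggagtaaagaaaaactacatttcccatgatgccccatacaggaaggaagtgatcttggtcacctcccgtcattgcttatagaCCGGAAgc
Rps3a1: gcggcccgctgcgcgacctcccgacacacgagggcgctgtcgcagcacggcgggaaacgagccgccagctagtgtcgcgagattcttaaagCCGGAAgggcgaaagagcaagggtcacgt
Rpl3l: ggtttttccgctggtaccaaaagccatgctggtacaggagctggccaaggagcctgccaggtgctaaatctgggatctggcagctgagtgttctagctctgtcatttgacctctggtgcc
Rps27l: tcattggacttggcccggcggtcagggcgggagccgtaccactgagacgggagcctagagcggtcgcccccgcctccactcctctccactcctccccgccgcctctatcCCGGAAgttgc
Rpl22: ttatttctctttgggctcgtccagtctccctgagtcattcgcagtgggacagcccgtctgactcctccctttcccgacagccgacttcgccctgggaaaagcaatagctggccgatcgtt
Rpl6, Rps3a1 and Rps27l carry the motif within the printed stretch, and Rpl4, Rpl10a, Rpl3l and Rpl22 do not.

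The tissue matched its label. All 7 skeletal muscle markers were above the filter, from 10712 for Mb to 18415 for Ckm, and their summed intensity lay between 99399 and 106117 in every mouse. Of the lymphocyte markers, Cd79a, Cd79b, Cd3e, Cd3g and Ptprc were all under the filter, and Ighm, the immunoglobulin heavy chain, was the exception at a mean of 1615. Array medians ranged from 157 to 175. The trained transgenic arrays were dimmer at the bright end, with a 95th percentile of 1260 ± 26.7 (SD, n = 5) against group means of 1319 to 1337 in the other groups, and most members are bright. In muscle homogenate, less RNA per cell and fewer cells of a type cannot be told apart.

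One trained wild-type mouse, WTT-144, stood apart in the ribosomal protein genes. Averaged over the 42 tested members, its deviation from each gene's mean was 0.25 on the log2 scale, and the other 19 mice lay between -0.094 and 0.062. In this mouse 35 of the 42 members were at their highest level of all 20 mice, and 8.65% of all tested probe sets were. Relative to the mean of the other 4 trained wild-type mice, the median member stood 0.27 log2 higher the median tested probe set 0.0060 higher, and the median of the 1488 other probe sets at a mean of 1000 or more 0.090 higher. The 37 members of the same brightness stood 0.28 higher. Rpl11, a large subunit protein that binds Mdm2, read 2637 in WTT-144 against 1803 ± 93.7 (SD, n = 4). Rps3, which also works in DNA repair, read 3762 against 2874 ± 22.9.

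The excess in WTT-144 reached both subunits and the stalk, with Rps20 1.40-fold, Rps26 1.31-fold, Rpl7 1.29-fold, Rplp2 1.23-fold and Rplp0 1.19-fold above the other trained wild-type mice. Among the paralogs, Rpl22l1 was 1.44-fold higher, Rpl3l read 2812 against 2681 ± 136.7, and Rpl39l read 263 against 266 ± 31.5. Rps25, a dim small subunit gene, read 133.7 there against 153 ± 13.4. The members took 1.60% of this array's summed intensity and 1.33 to 1.44% of the others'.

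Some other measures of WTT-144 also stood near an end of their range, and others did not. Its array had the highest mean intensity of the 20, 401, and ranked 2nd in the 95th percentile (1412) and in the mean deviation of the 1488 other bright probe sets (0.11 log2). Ighm was at 3280 there and between 820 and 2326 in the other mice. The summed skeletal muscle markers ranked 19th of 20, within the narrow range given above, the fibroblast markers 18th and the red cell markers 2nd. The adipocyte markers ranked 16th and the endothelial markers 12th, and 16 other genes with a 5′ TOP start ranked 3rd. Its Gapdh 3′ over 5′ log2 ratio of -0.050 lay within the range of the other arrays. The part of these values in the excess was not tested. Most counts, medians and single values that leaving out WTT-144 moved by over 1.5 times are given without it as well.

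**Figure D1:**
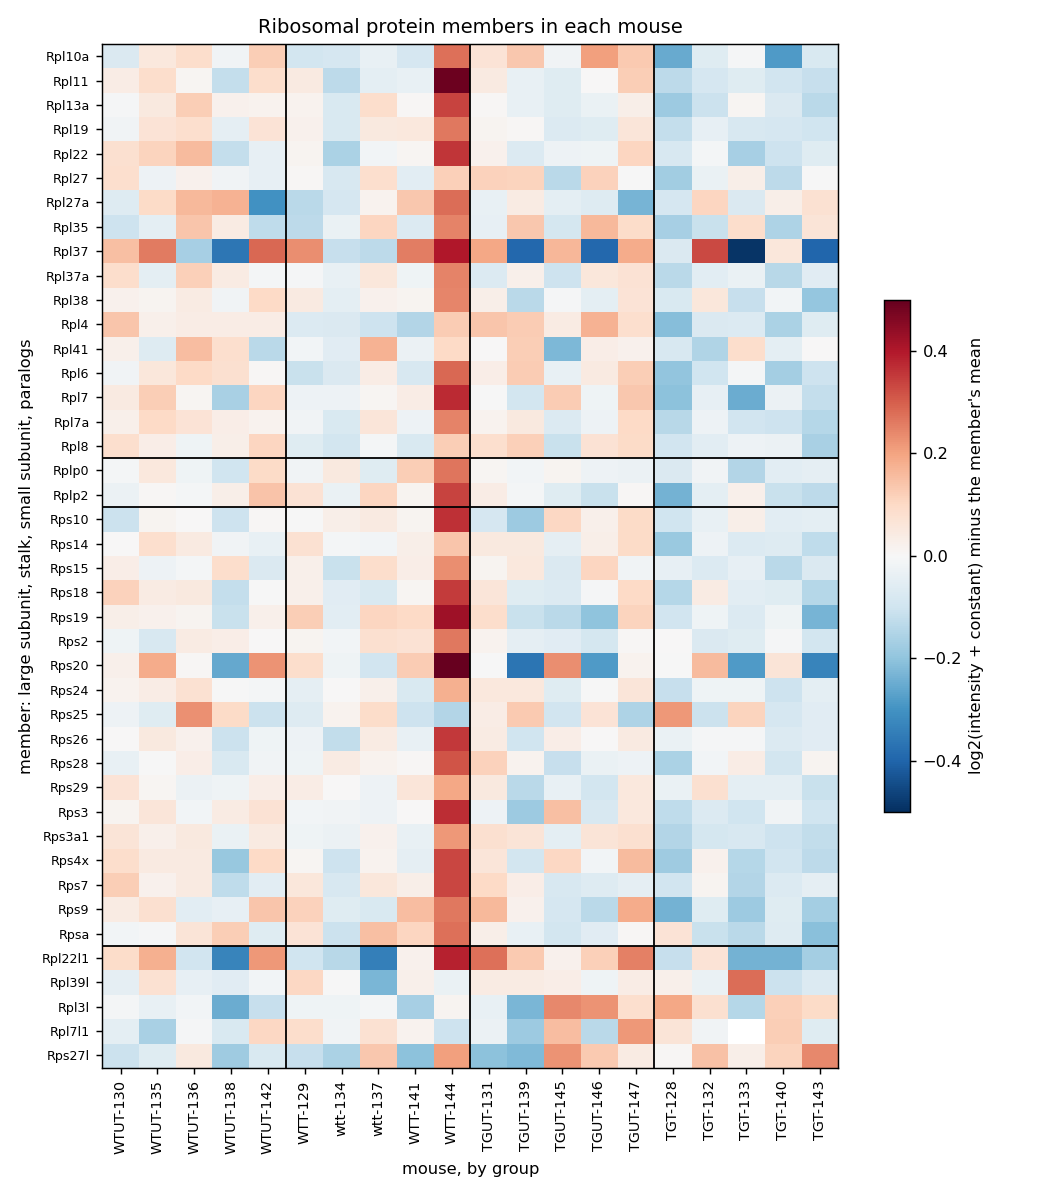
Deviation of each of the 42 tested members (rows, ordered as large subunit, stalk, small subunit and paralogs) from its own mean over all mice, on the log2(intensity + 66.7) scale, in each of the 20 mice (columns, 5 per group, groups split by lines; the colour scale ends at 0.5 in either direction, and the blank cell is an empty value). WTT-144 holds the highest of the 20 values in 35 of 42 rows. The exceptions are Rps27l, where it ranks 3, Rpl4 and Rpl41, where it ranks 4, and Rpl3l, Rpl39l, Rpl7l1 and Rps25, where it ranks lower.

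Rpl4 fell with training averaged over both genotypes, the 1 member of 42 that passed the test, and no member rose. Over the whole array 678 of 13576 tested probe sets passed the test in this comparison (percent called 4.99), 351 of them lower (2.59%). Rpl4, a large subunit protein that lines the exit tunnel of the ribosome, read 5527, 5108, 5156, 5153 and 5148 in the untrained wild-type mice. It read 4786, 4774, 4666, 4526 and 5489 in the trained wild-type mice, the last value being WTT-144. In the transgenic mice it read 5524, 5483, 5159.7, 5661 and 5315 untrained and 4321, 4767, 4780.2, 4492 and 4807 trained. Every trained mouse except WTT-144 was below every untrained mouse. Without WTT-144, 8 of the 13576 probe sets showed this separation (0.0589%). That mouse was picked on the members' own values, and its Rpl4 value was the one that broke the separation. The share over all probe sets is therefore no like-for-like background for Rpl4. With WTT-144 included, 0 members had all trained mice below all untrained mice. The averaged difference of Rpl4 was -0.17 ± 0.035 (limma adjusted p = 0.0141), a 1.12-fold reduction, with a 95% interval from -0.24 to -0.094.

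Differences are on the log2 scale after adding 66.7 to each intensity, errors are standard errors, and adjusted p-values are from limma over all tested probe sets. Rpl4 passed in each of the 20 fits that left out 1 mouse, at adjusted p from 0.00309 to 0.0338, and under quantile normalization (-0.17), loess (-0.18) and centring on array medians (-0.17). Within wild-type mice alone the difference was -0.11 ± 0.049 (limma adjusted p = 0.59), and within transgenic mice -0.23 ± 0.049 (limma adjusted p = 0.0509).

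Without WTT-144, 5 members passed the averaged comparison, all lower, against 995 of all probe sets (7.33%), 600 of them lower (4.42%). These were Rpl4 (-0.19, adjusted p = 0.00309), Rpl10a (-0.17, adjusted p = 0.0239), Rps3a1 (-0.10, adjusted p = 0.026), Rpl6 (-0.14, adjusted p = 0.0303) and Rpl8 (-0.12, adjusted p = 0.0494). With all 20 mice the last 4 missed the threshold, at adjusted p from 0.124 to 0.218. Leaving out TGUT-145 instead gave 2 calls, Rpl4 and Rpl8. WTT-144 was singled out on the members' own values, where it was mostly the highest mouse. Leaving it out therefore lowers most of their trained means, and the share over all probe sets is no like-for-like background in such fits.

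Rpl10a, a protein of the L1 stalk that meets the tRNA leaving the ribosome, showed where WTT-144 entered. It read 2742, 2999, 3074, 2853 and 3152 in untrained and 2705, 2718, 2809, 2716 and 3503 in trained wild-type mice. In transgenic mice it read 3031, 3174, 2848, 3336 and 3168 untrained and 2415, 2768, 2871, 2358 and 2737 trained. The groups overlapped in both genotypes, and the highest of all 20 values was WTT-144. Rpl6, a large subunit protein, was at 2806 ± 99.4 in untrained and 2615 ± 122 (SD, n = 4) in the other trained wild-type mice, with WTT-144 at 3329, and at 2834 ± 137.4 and 2506 ± 131.4 in untrained and trained transgenic mice. Rpl8, which sits near the peptidyl transferase centre, was at 3501 ± 123 and 3245 ± 82.6 in the same wild-type groups, and at 3518 ± 223 and 3218 ± 127 in the transgenic ones.

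**Figure D2:**
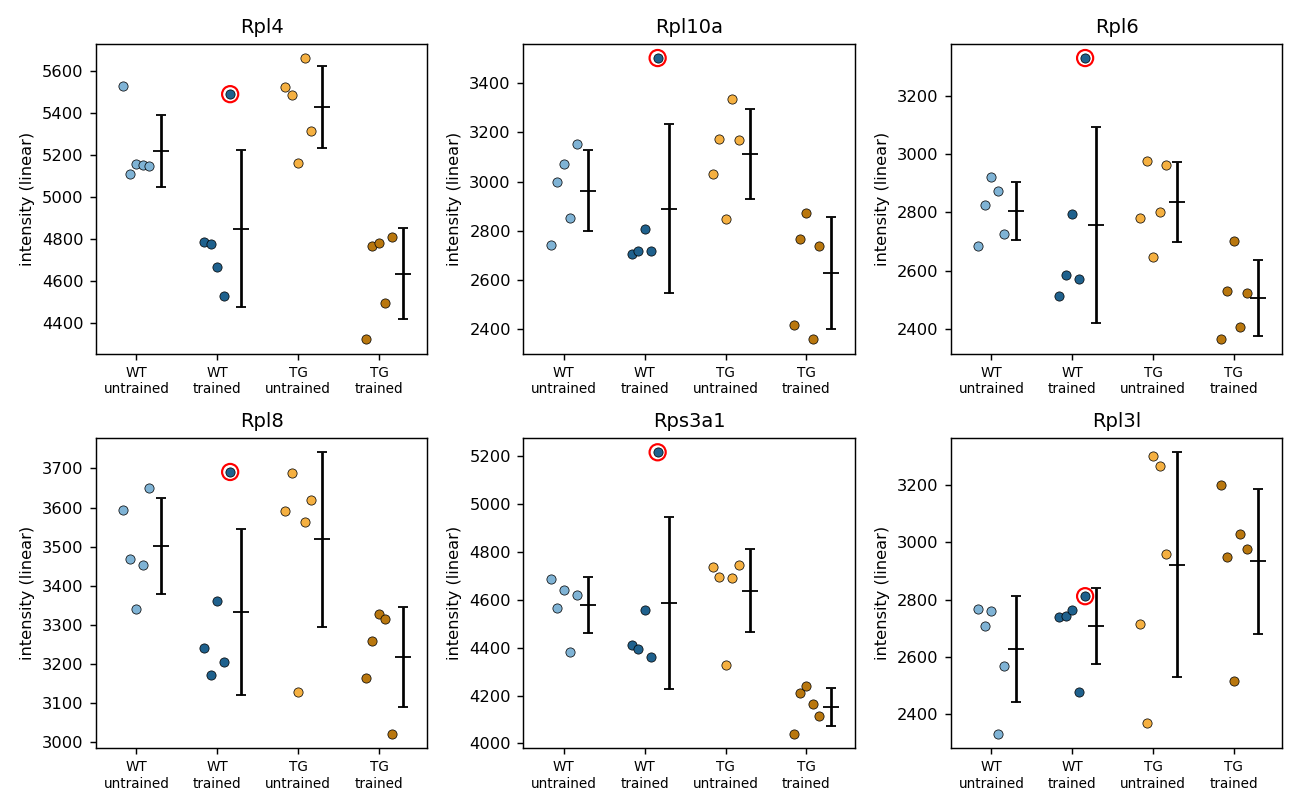
Linear intensity of Rpl4, Rpl10a, Rpl6, Rpl8, Rps3a1 and Rpl3l in each mouse (points), with the mean and SD of each group of 5 beside them and WTT-144 ringed in red; the vertical axes do not start at 0. Rpl4 lies between 4321 and 4807 in the trained mice other than WTT-144 and between 5108 and 5661 in the untrained mice, whereas Rpl3l overlaps in all 4 groups.

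The other 41 members did not pass for averaged training. Their differences ran from -0.17 for Rpl22l1 to 0.081 for Rps27l, with a median of -0.020 over the 42 members and 0.0019 over all tested probe sets, and 27 of 42 were below 0. Without WTT-144 the members' median was -0.044, with 34 of 42 below 0. For 41 of the 42 the 95% interval stayed inside 0.3 log2 in either direction, a 1.23-fold change. Large subunit genes included Rpl38, linked to translation of Hox mRNAs, and Rpl41, the smallest ribosomal protein, at -0.013 and -0.0023. Rpl11, Rpl13a, part of an interferon-regulated translation silencer, and Rpl19 were at -0.034, -0.022 and -0.022. The small subunit genes Rps19 and Rps24, both mutated in Diamond-Blackfan anaemia, were at 0.053 and -0.044, with no adjusted p under 0.05. Leaving out WTT-144 lowered each of these 7, to -0.088 for Rpl11, -0.055 for Rpl13a, -0.048 for Rpl19, -0.036 for Rpl38, -0.01 for Rpl41, -0.064 for Rps24 and 0.017 for Rps19. It took Rps27l to 0.052 and Rpl22l1 to -0.22 (limma adjusted p = 0.0634), the lowest of the members with and without that mouse.

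In wild-type mice no member passed for training, and neither did any of the 13576 probe sets (percent called 0), of which 1069 (7.87%) had an unadjusted p under 0.05 by limma. The median member difference was 0.034, with 32 of 42 above 0, and it turned to -0.017, with 27 of 42 below 0, when WTT-144 was left out. Rps19 had the highest value, 0.14 ± 0.081 (limma adjusted p = 0.716), followed by Rps10 at 0.13 ± 0.07 (limma adjusted p = 0.714). Without WTT-144 they were at 0.072 and 0.059, and Rpl7l1 was the highest at 0.08. These values are from the brightest probe set of each gene. With WTT-144 included, the 6 tested probe sets of Rps10 disagreed in sign, from -0.116 to 0.136. The 2 of Rpl7l1 disagreed too, at -0.118 and 0.0508, the latter from its brightest probe set. Rps10, Rps2 and Rps28 all had their highest reading in WTT-144, at 3258, 6164 and 5421. Without WTT-144, 4 of all probe sets passed (0.0295%) and no member did.

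In transgenic mice training gave 0 calls among the members, against 42 of all tested probe sets (percent called 0.309), 24 of them lower (0.177%). At an unadjusted p under 0.05, 9 members were below 0 and none above, and the same share over all tested probe sets was 17.4%, with 10.3% below 0. The median member was at -0.074, with 35 of 42 below 0, and the median of all tested probe sets was at 0.0045. Under quantile normalization the members' median was -0.041 and that of all tested probe sets 0.019. Rpl4 was nearest to the threshold and passed it under other settings or without single mice, 2 of them wild-type. Leaving out WTT-144 gave 2 calls, Rpl4 and Rps3a1, out of 93 (0.685%), 61 of them lower (0.449%). Leaving out TGUT-145 gave 3, Rpl10a, Rpl4 and Rps3a1, and leaving out TGUT-146 or wtt-137 gave Rpl4 alone. WTT-144 is in neither group of this comparison, so leaving it out did not change the differences. It lowered the SD within groups, from 0.072 to 0.053 log2 for Rpl4 and from 0.064 to 0.039 for Rps3a1. That mouse was picked on the members' own values, so the share over all probe sets is no like-for-like background for these 2 calls.

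The untrained and trained transgenic groups did not overlap for Rpl4 and Rps3a1, both lower with training, and 2.05% of all tested probe sets were separated in this way. Rps3a1, a small subunit protein that contacts initiation factors, read 4736, 4693, 4328, 4689.7 and 4744 in untrained and 4041, 4209, 4239, 4166 and 4113 in trained transgenic mice. It read 4687, 4564, 4639.9, 4382 and 4620.4 in untrained and 4411, 4393, 4555, 4362 and 5216 in trained wild-type mice. The trained transgenic mice were the lowest of the 4 groups, and no mouse of another group was as low. Its training difference was -0.16 ± 0.047 (limma adjusted p = 0.0973) in transgenic and -0.0002 ± 0.047 (limma adjusted p = 1) in wild-type mice, or -0.047 ± 0.038 (limma adjusted p = 0.782) without WTT-144. Rps14, a protein of the small subunit platform, was at -0.13 ± 0.045 (limma adjusted p = 0.141) in transgenic mice.

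For the transgene in untrained mice no member passed, against 15 of all tested probe sets (percent called 0.11), and no member had an unadjusted p under 0.05 (8.12% of all tested probe sets). The median was -0.0046, with 23 of 42 below 0. The median was 0.044 under quantile normalization and 0.021 under loess, so its direction depended on the scaling. Of the 42 95% intervals, 38 stayed inside 0.3 log2 in either direction. Rpl22l1 and Rpl3l had the highest differences, 0.15 ± 0.12 (limma adjusted p = 0.849) and 0.14 ± 0.083 (limma adjusted p = 0.731). Rps20 had the lowest, -0.12, and is among the 3 members that varied most within groups, together with Rpl37 and Rpl22l1.

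The transgene comparison in trained mice shares the trained transgenic group with the training comparison in transgenic mice, so their values are not independent. Among trained mice 0 members passed for the transgene, against 7 of all tested probe sets (percent called 0.0516). At an unadjusted p under 0.05, 16 of 42 were below 0 and none above, against 12.5% of all tested probe sets in both directions and 8.32% below 0. The median was -0.13, with 37 of 42 below 0, and the median of all tested probe sets was 0.0050. The members' median moved with the scaling and with WTT-144. It was -0.038 under quantile normalization, where the median of all tested probe sets was 0.026, and -0.083 under loess. Without WTT-144 it was -0.062, when 8 members had an unadjusted limma p under 0.05. The 1488 other probe sets at a mean of 1000 or more had a median of -0.048 in the same comparison. The part of the dimmer bright end in the members' median was not tested.

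For 3 members the trained transgenic and trained wild-type groups did not overlap (Rpl7, Rps14 and Rps3a1, all lower), as for 1.69% of all tested probe sets. Rps14 read 4032, 3798, 3784, 3905 and 4213 in trained wild-type and 3356, 3758, 3649.7, 3655 and 3496 in trained transgenic mice. Rpl7, an RNA-binding large subunit protein, read 2141, 2139, 2191, 2237 and 2838 in trained wild-type and 1882, 2116, 1825, 2136 and 1999 in trained transgenic mice. Each trained transgenic value lay below each trained wild-type value. The differences were -0.14 ± 0.045 (limma adjusted p = 0.259) for Rps14, -0.20 ± 0.079 (limma adjusted p = 0.317) for Rpl7 and -0.14 ± 0.047 (limma adjusted p = 0.274) for Rps3a1. Without WTT-144 they were -0.11, -0.13 and -0.092.

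The smallest unadjusted p-value belonged to Rplp2, a P protein of the stalk that recruits the translational GTPases, at -0.20 ± 0.063 (limma adjusted p = 0.253). Its partner at the base of the stalk, Rplp0, was at -0.14 ± 0.053 (limma adjusted p = 0.307), or -0.09 without WTT-144. Rps9 was at -0.22 ± 0.076 (limma adjusted p = 0.277) and Rpsa, the laminin receptor precursor, at -0.19 ± 0.066 (limma adjusted p = 0.284). By subunit, the median was -0.13 for the 17 large subunit genes, all below 0, and -0.13 for the 18 small subunit genes, 17 of which were below 0. Without WTT-144 these medians were -0.060 and -0.077, and under quantile normalization -0.026 and -0.047, with 12 of 17 and 14 of 18 below 0. Of the 5 paralogs 4 were above 0, with a median of 0.045.

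Averaged over training, the transgene changed 0 members, against 167 of all tested probe sets (percent called 1.23), and the members' median of -0.060 became 0.0055 under quantile normalization and -0.035 without WTT-144. The 5 with the smallest p-values were Rplp2, Rpl13a, Rpsa, Rps19 and Rpl19, between -0.094 and -0.14, with limma adjusted p from 0.153 to 0.227. The interaction of genotype and training passed for 0 members and 0 probe sets (percent called 0), with 395 (2.91%) at an unadjusted limma p under 0.05. The median member interaction was -0.11, with 38 of 42 below 0, and -0.056 without WTT-144. Rps14 and Rps3a1 were the 2 members with an unadjusted p under 0.05. The interaction of Rps14 was -0.16 ± 0.063 with a limma adjusted p of 1. Only 19 of 42 intervals stayed inside 0.3 log2, so this comparison was the least precise.

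**Figure D3:**
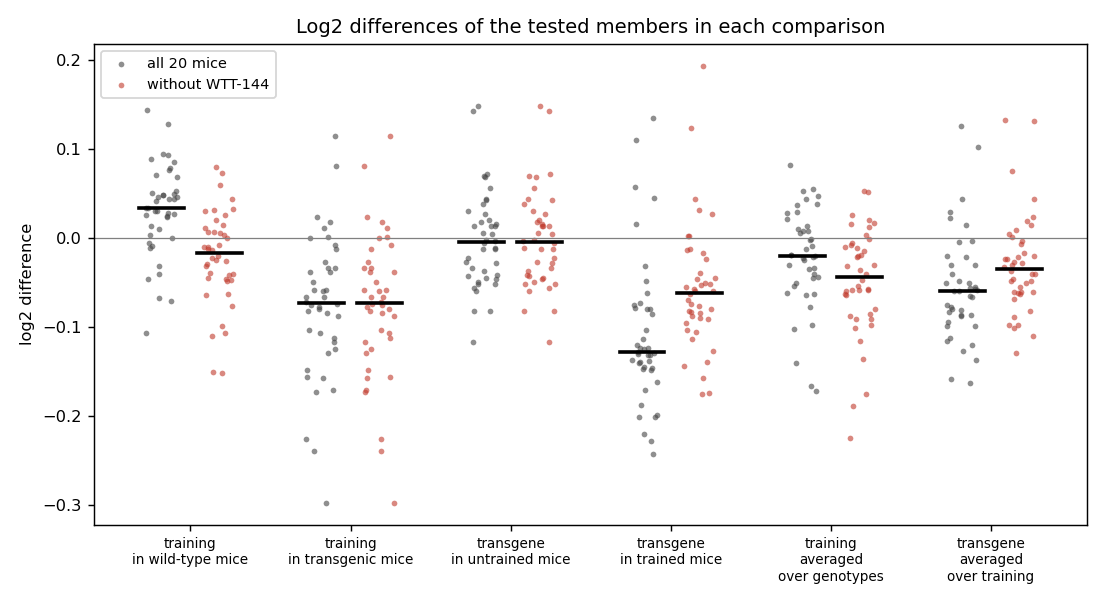
Log2 difference of each of the 42 tested members (points, spread sideways at random) in 6 comparisons, fitted to all 20 mice (grey) and without WTT-144 (red), with black bars at the medians; for training the value is trained minus untrained and for the transgene it is transgenic minus wild-type. Leaving out WTT-144 moves the median from 0.034 to -0.017 for training in wild-type mice and from -0.13 to -0.062 for the transgene in trained mice.

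Within groups the members varied together from mouse to mouse. Over the 861 pairs of members the median correlation of residuals, each mouse's deviation from its group mean, was 0.46, with 84.7% of pairs above 0, over 20 arrays that supply every member apart from the empty value of Rpl7l1 in TGT-133. Without WTT-144 the median was 0.17 and 65.9% were above 0. For every 10th tested probe set the median was -0.0016. Rpl11, Rps26 and Rps18 followed the mean of the other members most closely, with correlations of 0.95, 0.94 and 0.92, or 0.79, 0.77 and 0.82 without WTT-144. At the other end were Rps25 (-0.43), Rpl7l1 (-0.12), Rpl39l (-0.038), Rpl41 (0.085) and Rpl3l (0.13), which without WTT-144 were at -0.46, 0.29, -0.042, -0.12 and 0.050. These correlations describe members that share arrays and scaling, and most pairs share a high intensity.

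**Figure D4:**
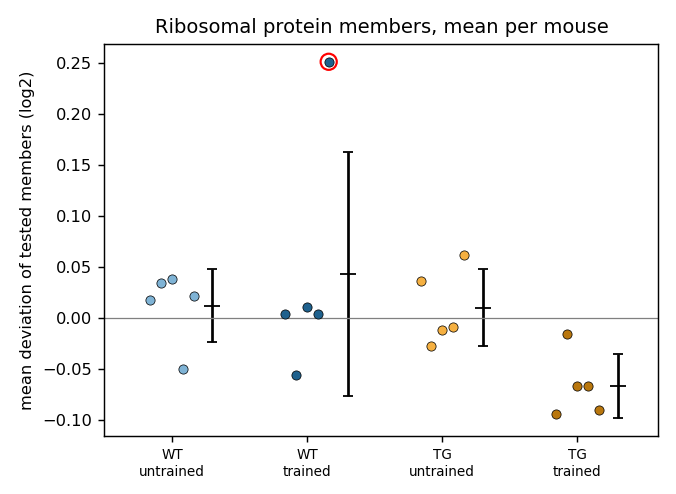
Mean deviation of the 42 tested members from their own means, in log2 units, for each mouse (points) with the group mean and SD beside them; WTT-144 is ringed in red. WTT-144 lies at 0.25, the other 4 trained wild-type mice lie between -0.055 and 0.011, and the trained transgenic mice lie between -0.094 and -0.016.

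The tightest members within groups were Rps14, Rps24 and Rps3a1, with residual SDs of 0.057, 0.062 and 0.064 log2, or 0.052, 0.045 and 0.039 without WTT-144. The widest were Rpl37, Rps20 and Rpl22l1, at 0.30, 0.22 and 0.19. Rpl37 and Rps20 were read by probe sets of the x kind, which can cross-hybridise to other sequences, as were 14 of the 42. Of the members, Rps29, Rps2 and Rpl4 had the brightest probe sets, at means of 6139.5, 5129 and 5032, which does not rank their mRNAs. At the dim end were Rps4l (54.0), Rpl14 (37.3) and the pseudogene Rps15a-ps6 (9.98), with Rps6 (117), Rps27 (110.4), Rpl39 (83.0) and Rpl12 (71.5) also under the filter. For several of these the array carries brighter probe sets that name more genes, 9 of them for Rps6.

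For the transgene all 5 paralogs, each read by its brightest probe set, were above 0 in untrained mice (median 0.069) and averaged over training (median 0.044). These comparisons share the untrained mice. The second tested probe set of Rpl7l1 was below 0 in both, at -0.13 and -0.047. With the brightest probe sets all 5 were also above 0 in both comparisons under quantile normalization, loess and median centring, and none passed the test. Averaged over training all 5 stayed above 0 without WTT-144 (median 0.075), a mouse that does not enter the differences in untrained mice. Under quantile normalization 13 of 17 large and 14 of 18 small subunit genes were above 0 in untrained mice too. Over all tested probe sets 7071 of 13576 were above 0 in untrained mice and 7019 averaged over training. For training the paralogs were split, with 3 of 5 above 0 when averaged over genotypes. Rpl3l read 2768, 2709.6, 2761, 2333 and 2568 in untrained and 2740.4, 2744, 2764, 2477 and 2812 in trained wild-type mice, and 2715, 2369, 3302, 3266 and 2959 in untrained and 3198, 2949, 2516, 3028 and 2977 in trained transgenic mice. The groups overlapped, and the untrained transgenic mice alone spanned 2369 to 3302. Its difference was 0.027 ± 0.059 (limma adjusted p = 0.854) for averaged training and 0.13 ± 0.059 (limma adjusted p = 0.274) for the averaged transgene. Rps27l, a p53-responsive relative of Rps27, was at 1277 ± 77.4, 1330.0 ± 182, 1352 ± 195 and 1459.6 ± 101 in the order of the groups above, and its averaged transgene difference was 0.10 ± 0.067 (limma adjusted p = 0.452).

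Rpl22l1, the paralog that Rpl22 represses, averaged 1396 ± 218 untrained and 1356 ± 279 trained in the wild-type genotype, against 1542 ± 117 untrained and 1243 ± 119 trained with the transgene. The training difference in transgenic mice was -0.30 ± 0.12 (limma adjusted p = 0.195), with all 5 trained mice below the untrained mean. Rpl39l, a testis-enriched paralog, and Rpl7l1, a nucleolar assembly factor, were at -0.0087 and 0.037 for averaged training, the latter with 1 empty value, in TGT-133, that the fit dropped.

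Rpl22, a large subunit RNA-binding protein, had 2 tested probe sets that disagreed. The brighter, which represents the gene under the rule, averaged 1395 ± 114 untrained and 1405 ± 205 trained in the wild-type genotype, against 1356 ± 67 untrained and 1275 ± 53.1 trained with the transgene, and its averaged training difference was -0.041 ± 0.056 (limma adjusted p = 0.756), or -0.08 without WTT-144. The second probe set, chosen for description after its values were seen, read 532, 592, 500.2, 513 and 564 in untrained and 433, 475, 419, 428 and 360.2 in trained wild-type mice. It read 573, 532, 582, 583 and 639 in untrained and 373, 463, 468, 401 and 449.7 in trained transgenic mice. All 10 trained mice were below all 10 untrained mice, WTT-144 included as the lowest, and this was the only 1 of the 13576 tested probe sets separated in that direction (percent called 0.00737).

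For this second Rpl22 probe set the averaged training difference was -0.35 ± 0.050 (limma adjusted p = 0.00297). It passed in all 20 fits without 1 mouse, at adjusted p from 0.00177 to 0.00895, and under quantile normalization (-0.33), loess (-0.34) and median centring (-0.35). In transgenic mice alone the difference was -0.38 ± 0.071 (limma adjusted p = 0.0355), and in wild-type mice alone -0.31 ± 0.071 (limma adjusted p = 0.184). Its name ends in _s_at, the platform's mark for probes that match several transcripts, and which Rpl22 transcript or other RNA each probe set reads was not tested.

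**Figure D5:**
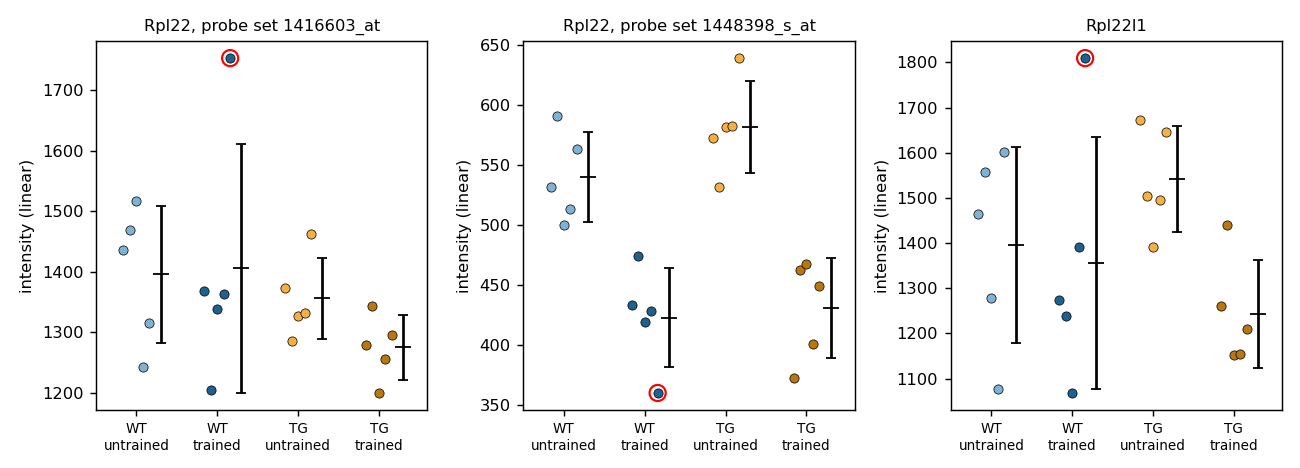
Linear intensity in each mouse (points) of the brighter Rpl22 probe set (left), the second Rpl22 probe set (middle) and Rpl22l1 (right), with group mean and SD and WTT-144 ringed in red; the vertical axes do not start at 0. In the middle panel trained mice lie between 360.2 and 475 and untrained mice between 500.2 and 639, whereas in the left panel the groups overlap and WTT-144 is the highest of the trained wild-type mice.

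Several genes per probe set were named on 84 further tested ribosomal probe sets, outside the rule. For averaged training 4 of the 84 passed: 2 that name Rps6 and its pseudogene Rps6-ps4 (-0.16 and -0.13, adjusted p = 0.0413 and 0.0425) and 1 that names Rpl10 and Gm5621 (-0.15, adjusted p = 0.0325) were lower, and 1 that names Rpl37a and Mir682 was higher (0.13, adjusted p = 0.0376). Rps6 is the ribosomal protein phosphorylated downstream of mTORC1. For the averaged transgene 2 Rps6 probe sets passed, both lower (-0.15 and -0.20, adjusted p = 0.0456 and 0.0445). Over all tested probe sets 4.99% passed for averaged training and 1.23% for the averaged transgene. The count of 4 of 84 for averaged training is near the share of the whole array. The member Rpl37a itself was at -0.035 ± 0.039 (limma adjusted p = 0.69) for averaged training, so probe sets of this gene differed in sign. Near-identical copies cannot be separated on such probe sets.

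Genes around the ribosome were described from lists of known function. Of 16 other genes with a 5′ TOP start, 3 fell with training averaged over genotypes and none rose: Npm1, a nucleolar chaperone (-0.24 ± 0.060, adjusted p = 0.0316), the initiation factor subunit Eif3e (-0.21 ± 0.058, adjusted p = 0.0382) and Eif4b (-0.21 ± 0.041, adjusted p = 0.0107). Over all tested probe sets 2.59% were called lower. The median over the 16 was -0.099. Eif4b passed in all 20 fits without 1 mouse, Npm1 in 11 and Eif3e in 7.

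Of 57 tested genes for ribosome assembly and ribosomal RNA synthesis, 9 fell with averaged training and none rose, with a median of -0.046 and 42 of 57 below 0. Over all tested probe sets 2.59% were lower in this comparison. Npm1 belongs to this list too. The largest falls were those of Rrs1, which brings 5S RNA into the large subunit (-0.61 ± 0.16, adjusted p = 0.0391), and Gnl3, nucleostemin (-0.45 ± 0.12, adjusted p = 0.0365). Nop56 (-0.18), Nop58 (-0.30), both core proteins of methylation-guide snoRNPs, and the helicase Ddx21 (-0.29) passed in all 20 fits without 1 mouse. Rrs1, Gnl3, Ddx18, Gnl2, Ncl and Npm1 passed in 4 to 11 of the 20. For the averaged transgene, Rrn3, a factor of RNA polymerase I, was higher by 0.14 ± 0.034 (adjusted p = 0.0467), a call that ended under quantile normalization (adjusted p = 0.0568) and held in 5 of 20 fits without 1 mouse. Of all tested probe sets 1.23% passed for the averaged transgene.

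Of 18 tested regulators of ribosomal protein synthesis, 3 fell with averaged training and none rose, with a median of -0.15, against 2.59% of all tested probe sets called lower. Larp1, which binds 5′ TOP mRNAs, was 1.24-fold lower (-0.31 ± 0.056, adjusted p = 0.00784) and passed in all 20 fits without 1 mouse. Eif4ebp1, the mTORC1 target that restrains cap-dependent initiation, was 1.52-fold lower (-0.60 ± 0.17, adjusted p = 0.0436) and passed in 6 of the 20. Gabpa, an ETS-family factor, was 1.22-fold lower (-0.28 ± 0.074, adjusted p = 0.0347) and passed in 8 of the 20. Leaving out WTT-144 raised the counts of lower genes to 4 of 16, 14 of 57 and 7 of 18 in the 3 lists, against 4.42% of all tested probe sets, and made 1 gene of the first list higher. By summed intensity WTT-144 was the highest trained wild-type mouse in each list, ranking 3rd, 3rd and 4th of all 20 mice. Leaving it out therefore lowers their trained level, and the share over all probe sets is no like-for-like background for these counts. Centring the arrays on their medians ended the call of each gene that had not passed in all 20 fits, at adjusted p from 0.0539 to 0.0788 for averaged training.

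Among the marker lists of other cell types, averaged training passed for 1 gene, the collagen gene Col3a1 of fibroblasts, higher by 1.02 ± 0.28 (adjusted p = 0.04). The call held in 6 of 20 fits without 1 mouse and ended under median centring (adjusted p = 0.053). The summed fibroblast markers ran from 3870 to 6441 in untrained and 5423 to 7075 in trained wild-type mice, and from 5998 to 7358 and 5510 to 7964 in the transgenic groups. The averaged transgene lowered Ighm (-0.72 ± 0.13, adjusted p = 0.0125) and the endothelial cadherin Cdh5 (-0.30 ± 0.062, adjusted p = 0.0221), which passed in 20 and 18 of the 20 fits. Of all tested probe sets 4.99% passed for averaged training and 1.23% for the averaged transgene. Cdh5 was the 1 of 5 endothelial markers that passed: 3 of the 5 were below 0, with Kdr at -0.14, Pecam1 at -0.054, Egfl7 at 0.12 and Tek at 0.19. The summed endothelial markers had group medians of 1866 (WTUT), 2026 (WTT), 2129 (TGUT) and 1860 (TGT), with overlapping ranges. Their part in the ribosomal results was not tested.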

How the data were processed

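Intensities per probe set on a linear scale, deposited by the authors for 22690 probe sets, were used as deposited; how they were summarised and scaled, and why 1745 cells (0.385%) are empty, is not given in the sources used here. Empty cells were left missing. The 64 control probe sets were left out. The log2 scale used adds 66.7 to each value (20th percentile over the table), which shrinks changes of dim genes. Probe sets were filtered on the mean over all arrays at the 40th percentile, which left 13576 probe sets. Limma 3.58.1 in R 4.3.3 fitted 4 group means with a variance trend (16 residual and 3.47 prior degrees of freedom). The 7 contrasts were tested two-sided, with Benjamini-Hochberg adjustment over all 13576 probe sets and a threshold of 0.05, and the script was tested on simulated data.

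Symbols came from the platform annotation and promoters from RefSeq. Members were named by a rule: the called or 5 smallest-p members per contrast, the brightest, dimmest, most and least variable 3, a list of well-studied members, and up to 2 called genes in each direction of the other lists. Genes named beyond it were chosen after their values were seen. The members and lists were chosen with earlier results of these data known. Alternatives were 3 other normalizations, 2 other constants, 2 other filters, other variance settings, array weights, the compared groups alone, other probe set choices, and leaving out each mouse or the 2 arrays with the most empty cells. Leaving out probe sets ending in _s_at or _x_at, and reporting every member without WTT-144, were added after seeing the data. The number of arrays limits the precision.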

Additional observations from a re-analysis of the deposited data

Results flagged for a closer look

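Outlying mice were looked for in each of the 4 groups of 5 by the gap between an extreme value and its neighbour relative to the group's range, a rule that chance meets in about 1 in 20 groups. In the mean deviation of the 42 tested members, WTT-144 (0.2513) was far above the other trained wild-type mice, and WTUT-138 (-0.05009) was below the other untrained wild-type mice.

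Of 168 single-member groups 18 held such a value, and the members share arrays, so these are not independent. WTT-144 accounted for 10 of them, each the highest of its group: Rpl10a (3503), Rpl11 (2637), Rpl4 (5489), Rpl7 (2838), Rps10 (3258), Rps18 (3992), Rps28 (5421), Rps3 (3762), Rps3a1 (5216) and Rps4x (3583). Another high value was Rpl4 in WTUT-130 (5527). The low values were Rps19 (1273) and Rps4x (2473) in WTUT-138, Rpl3l in WTT-141 (2477), Rpl39l in TGUT-146 (265), Rps26 in TGUT-139 (2213), and Rpl8 (3129) and Rps3a1 (4328) in TGUT-145.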

How the results depend on the processing

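Of 484 recomputed member counts and medians, 464 stayed within 1.5 times the count or 1 SD of the median, and 20 moved. The SD was 0.067 log2, the pooled within-group SD of the members' mean deviation. Several medians are smaller than this, so a median could change sign and still count as unmoved. Examples were training in wild-type mice without WTT-144 (0.034 to -0.017) and the averaged transgene under quantile normalization. The transgene in untrained mice under quantile normalization and loess was another. No sign of a called value reversed. For training in transgenic mice, the 0 calls became 1 under quantile normalization, an added constant of 1, a filter at the 60th percentile, robust variances, the dimmest tested probe set of each gene and without the 2 arrays with the most empty cells. Array weights gave 10 calls there, 8 for averaged training and 3 for the transgene in trained mice, beside 2467, 2771 and 1016 over all probe sets. Leaving out 1 mouse at a time gave 0 to 3 calls for training in transgenic mice and 1 to 5 for averaged training. For averaged training the dimmest probe set of each gene gave 2 calls, Rpl22 and Rpl4. Leaving out all probe sets that can bind several transcripts, Rpl4's among them, left 13 members and 0 calls. The median for the transgene in trained mice was -0.038 under quantile normalization and -0.032 in those 13 members, and ran from -0.150 to -0.062 when 1 mouse was left out. The cause of these shifts was not tested, beyond the smaller number of members. No paired analysis was possible because the mouse numbers in the titles are all different. Array signal gives no count depth. The 7 dim members were left out of the main tests by the filter; with no filter all 49 were tested, and 1 member, Rpl4, passed for averaged training.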
